A study of Rattus norvegicus with 68 samples.

Results

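The outer medulla was compared with the cortex of the same animals in 12 gonadectomized Dahl-Iwai rats, rat1 to rat12, by pairing their arrays on the rat number in the labels. These 24 arrays, 12 per zone, are part of 68 arrays of the series, and their 12 pairs are part of 33 pairs of both zones. Dahl-Iwai rats are an inbred line selected for blood pressure that rises on salt, and all 12 rats had lost their gonads. Per the labels, rats 1 to 3 were females on low salt, rats 4 to 6 females on high salt, rats 7 to 9 males on low salt and rats 10 to 12 males on high salt, each for 14 weeks. Age, the time of gonadectomy and any hormone replacement are not stated in the labels, and no gonad-intact rat is among the 12. Set beside them are 6 pairs of Dahl-Iwai rats that the labels do not call gonadectomized, termed intact here, on low salt, 3 of each sex, and 11 pairs of Sprague-Dawley rats, which the labels give as wild type, on either diet. Total RNA of each piece was read on 1 Affymetrix rat array of 8799 probe sets, and values are intensities in arbitrary units after quantile normalization of the 24 arrays.

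The kidney cortex holds the glomeruli, the convoluted parts of the proximal tubule and the distal convoluted and connecting tubules. The outer medulla holds the straight end of the proximal tubule in its outer stripe, thick ascending limbs, collecting ducts, thin descending limbs and the vasa recta. Glucose, phosphate, organic anions and filtered protein are taken up mainly in the proximal tubule. The thick ascending limb reabsorbs sodium chloride without water and builds the osmotic gradient that the collecting duct uses, under vasopressin, to concentrate urine.

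Differences are given on the log2 scale as outer medulla minus cortex, as the mean over the 12 rats ± its standard error from limma, so that 1 is 2-fold higher and -1 is 2-fold lower in the outer medulla. A probe set was called at an adjusted p under 0.05, and genes were described as at least 2-fold higher or lower where they were also past 1 or -1. The sample titles carry endings that differ between zones, and arrays with 1 ending are called an array set here: 1 set for all 12 cortices, 1 for the outer medulla of females and 1 for that of males. A difference between zones and a difference between array sets cannot be told apart in these 12 rats. In whole pieces of tissue, fewer cells of a type and less RNA per cell cannot be told apart either.

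Of 6118 probe sets tested 5039 were called (82.4%), 2549 higher (41.7%) and 2490 lower (40.7%) in the outer medulla. At least 2-fold were 1441 (23.6%), 721 higher (11.8%) and 720 lower (11.8%). In 1412 of these 1441 all 12 pairs went the same way, and in 1334 the 12 outer medulla values did not overlap the 12 cortex values. Over all probe sets tested, 1308 (21.4%) lay higher and 1389 (22.7%) lower in the outer medulla without overlap. Among 3604 genes with 1 symbol, 418 were at least 2-fold higher (11.6%) and 397 at least 2-fold lower (11%). These shares are the background of the list counts that follow. The lists and their members were chosen with earlier results of these data known, so a count above the background is a description and not a test. For members only called, without the 2-fold limit, the background was 42.1% higher and 40.1% lower. The brightest probe set stands for a gene, and where another tested probe set of a named gene differed in direction or call, or by more than 1 on the log2 scale, its value or its bound is given. The even split follows the scaling: quantile normalization left a median difference of 0.01, whereas on the intensities as deposited the median was 0.64, 81.9% of called probe sets were higher against 50.6%, and 1779 were at least 2-fold higher against 302 lower. All differences are therefore relative to the spread of intensities on each array, which was made the same for the 24 arrays. With arrays scaled only to a common median, 684 were at least 2-fold higher and 775 lower. Many dim probe sets stood at nearly 1 level on all arrays of a set, and 338 of the 1441 had no spread between rats in 1 zone or both, that is, an SD under 0.05 of the log2 intensity as deposited within each array set of the zone. Where a named gene was such a probe set, this is stated.

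The zones of rat1 stood apart. Its differences correlated with those of the other rats at a median r of 0.965 over probe sets, against 0.982 to 0.993 for the other 11, and it had the smallest difference of the 12 in 395 of the 1441. Of 37 genes at least 8-fold lower in the outer medulla, and not at the floor there, the highest outer medulla value belonged to rat1 in 22, to rat10 in 8 and to 1 of the other 10 rats in 7. The outer medulla of rat1 held Slc5a2 at 2.47% and that of rat10 at 2.23% of the level in its own cortex, against 0.67% to 1.18% in the other 10 rats. For Calb1, of the distal and connecting tubule, it was 16.3% and 11.6%, against 1.57% to 3.60%. Without these 2 rats 4934 probe sets were called, 734 of them at least 2-fold higher and 733 lower. The counts of convoluted tubule, thick ascending limb and collecting duct genes given below were the same without them, and the gluconeogenesis and amino acid list had 11 in place of 9 genes at least 2-fold lower. Results are given for all 12 rats.

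Genes of the proximal convoluted tubule were lower in the outer medulla. Of 25 tested members of this list 17 were at least 2-fold lower and 1 at least 2-fold higher, against 11% and 11.6% of all genes, and the median was -1.40 against 0.03 over all genes. Slc5a2, the low-affinity glucose cotransporter SGLT2 of the early proximal tubule, ran from 2627 to 4225 in cortex (median 3352) and from 28.1 to 78.2 in outer medulla (median 30.2). Every cortex was far above every outer medulla, and the mean difference was -6.61 ± 0.17, or 98-fold lower (adjusted p = 4.58e-12, lower in 12 of 12 rats). Slc4a4, the basolateral sodium bicarbonate cotransporter, ran from 2043 to 3732 in cortex and stood at the floor of 7.86 in all 12 outer medullas, so it was at least 357-fold lower. The exit transporter for glucose Slc2a2 was lower, at -3.89 ± 0.15, the dicarboxylate transporter Slc13a3 at -3.10 ± 0.13, the sulfate transporter Slc26a1 at -2.86 ± 0.11 and the organic anion transporter Slc22a6 at -2.55 ± 0.14 (adjusted p = 1.8e-10, 6.27e-10, 3.08e-10 and 5.75e-09). The ranges of the 12 rats were -4.99 to -3.02 for Slc2a2, -3.96 to -1.64 for Slc13a3 and -3.14 to -1.21 for Slc22a6, with rat1 at the small end for Slc13a3 and Slc22a6. For the monocarboxylate transporter Slc16a1 the brightest probe set gave -3.59 ± 0.064 and another gave 0.41, in the opposite direction.

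Phosphate and endocytosis genes of the same segment differed less. Slc34a1, the main phosphate cotransporter, ran from 16966 to 27674 in cortex (median 17872) and from 4140 to 14284 in outer medulla (median 9164), a difference of -1.24 ± 0.17 (adjusted p = 3.09e-05), and the zones did not overlap although rat1 came close to its own cortex at -0.25. Its 4 dimmer probe sets gave larger differences, from -1.62 to -2.25. The endocytic receptor Lrp2 (megalin) was lower, at -1.10 ± 0.12 and its partner Cubn (cubilin) at -1.36 ± 0.13, both in 12 of 12 rats. Amn (amnionless), which anchors cubilin, stood at -1.30 ± 0.11 and the adaptor Dab2 at -2.44 ± 0.093, so that 4 genes of this uptake route were lower together. Brush border genes shared with the straight tubule were nearer to 0 or above it, such as Slc3a1 at -0.12 (adjusted p = 0.103), the neutral endopeptidase Mme at 0.52 ± 0.11 (its other probe set called lower, at -0.44) and the sodium-proton exchanger Slc9a3 at 0.59 ± 0.095. The water channel Aqp1, of proximal tubule and thin descending limb, stood at 0.28 ± 0.085, higher in 7 of 12 rats with overlapping zones. The 1 member at least 2-fold higher was the vitamin D 1-hydroxylase Cyp27b1 (1.23 ± 0.037), which stood at -0.08 in low-salt intact Dahl-Iwai and -0.82 in Sprague-Dawley rats.

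**Figure D1:**
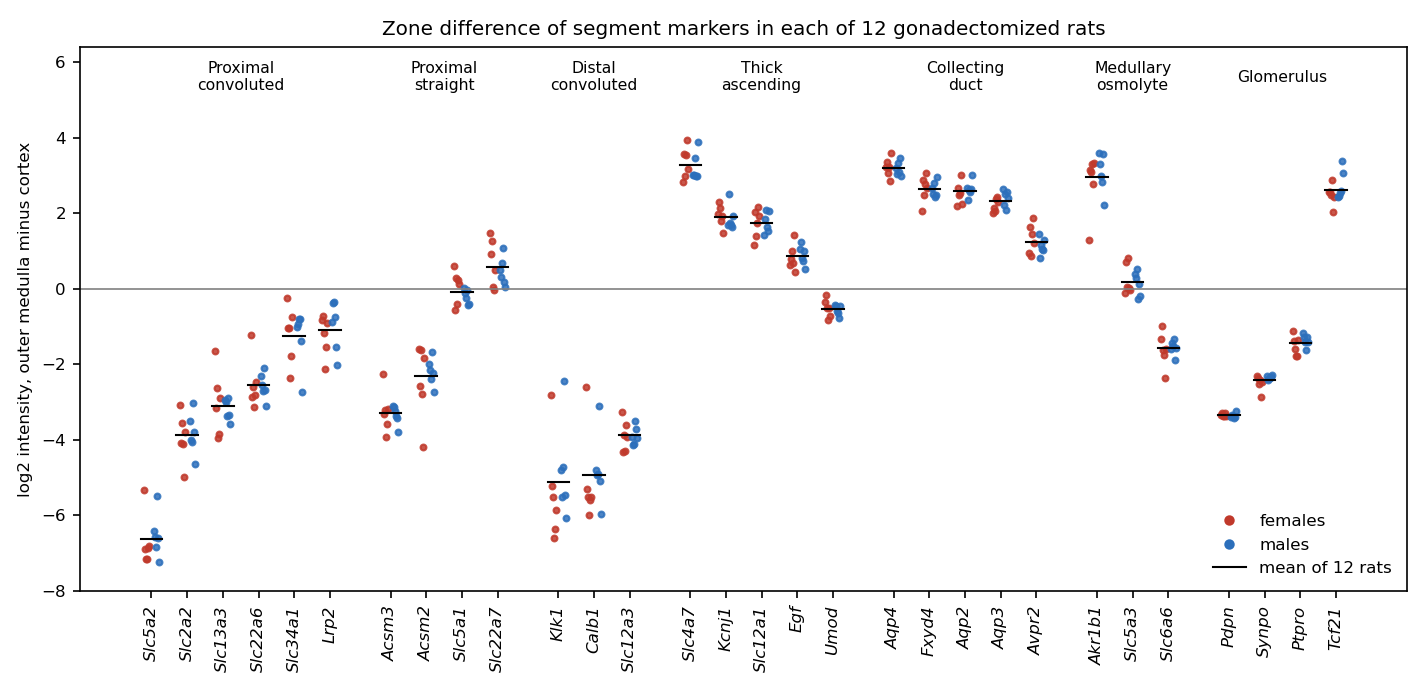
Difference in log2 intensity between outer medulla and cortex for 30 genes of 7 nephron parts, 1 point per rat (6 females, 6 males), with the mean of 12 rats as a bar. The convoluted tubule markers shown lie below 0 and most thick limb and collecting duct markers above it. Umod, Slc6a6, Tcf21 and Slc22a7 lie on the other side of their groups. The genes are a selection from the lists. Not shown are Kcne1, a collecting duct list member that was lower, and Cyp27b1, Mme, Slc9a3, Aqp1 and Slc8a1, which were higher in their brightest probe sets.

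The proximal straight tubule, which enters the outer stripe, was divided. Of 14 tested genes 5 were at least 2-fold lower and none at least 2-fold higher, with a median of -0.36. The medium-chain acyl-CoA synthetases Acsm3 (-3.29 ± 0.095) and Acsm2 (-2.32 ± 0.18), the carnitine transporter Slc22a5 (-2.65 ± 0.078), the long-chain fatty acid importer Slc27a2 (-2.17 ± 0.13) and the creatine synthesis enzyme Gatm (-1.86 ± 0.13) were lower in all 12 rats. Other transporters of the late segments were not among them. Slc5a1, the high-affinity glucose cotransporter SGLT1, ran from 349 to 586 in cortex (median 501) and from 325 to 815 in outer medulla (median 455), with overlapping zones and a difference of -0.08 ± 0.096 (adjusted p = 0.461), but its other probe set was called lower, at -0.59 in 11 of 12 rats (adjusted p = 0.000288). The peptide transporter Slc15a2 gave -0.09 ± 0.078 (adjusted p = 0.314), and the organic anion transporter Slc22a7 was higher by 0.58 ± 0.095 in 11 of 12 rats in 1 probe set, a call lost without the pairing (adjusted p = 0.0598), and gave -0.04 (adjusted p = 0.724) in its other, of like intensity. Glul, the glutamine synthetase of the straight tubule, ran from 12062 to 17811 in cortex (median 14501) and from 6548 to 16160 in outer medulla (median 11424) and differed by -0.39 ± 0.09 (adjusted p = 0.00175). In these probe sets of Slc5a1, Slc15a2 and Glul the cortex and outer medulla values overlapped, unlike in Slc5a2.

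Genes of the distal convoluted and connecting tubules were mostly lower in the outer medulla. Of 8 tested members 4 were at least 2-fold lower and none at least 2-fold higher, with a median of -0.71. Slc12a3, the thiazide-sensitive sodium chloride cotransporter, ran from 3769 to 5491 in cortex (median 4412) and from 245 to 459.7 in outer medulla (median 276) and was lower, at -3.89 ± 0.091, or 14.8-fold (adjusted p = 1.97e-12), with its other probe set at -5.35. Calb1, the calcium-binding calbindin D28k, ran from 1535 to 3213 in cortex and from 46.6 to 284 in outer medulla, where rat1 (267) and rat10 (284) stood above the other 10 rats (at most 65.6). Its mean was -4.94 ± 0.27. Klk1, the tissue kallikrein secreted by the connecting tubule, ran from 19508 to 25015 in cortex (median 22236) and from 227 to 4558 in outer medulla (median 498) and was lower, at -5.11 ± 0.31 (other probe set -6.78), with rat1 at 3042 and rat10 at 4558 in the outer medulla. The kallikrein genes Klk1b3 (-6.93 ± 0.17) and Klk1c3 (-6.08 ± 0.047) were lower too, but members of this family are near-identical and their probe sets are uncertain in that respect. S100g, calbindin D9k, was lower, at -1.11 ± 0.052, its other probe set at -2.12. Parvalbumin (Pvalb), of the early distal convoluted tubule, gave 0.10 ± 0.061 at a dim level of 29.6 to 46.4 (adjusted p = 0.152). The sodium-calcium exchanger Slc8a1 was higher by 0.90 ± 0.041 in its brightest probe set, whereas its 2 other tested probe sets were called lower, at -2.28 and -0.89.

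Genes of the thick ascending limb were higher in the outer medulla, with 1 defining gene on the other side. Of 12 tested members 11 were called higher and 1 lower, 6 at least 2-fold higher, and the median was 1.19. Slc12a1, the furosemide-sensitive cotransporter NKCC2, ran from 287 to 416 in cortex (median 376) and from 808 to 1642 in outer medulla (median 1251) without overlap, a difference of 1.75 ± 0.089, or 3.35-fold (adjusted p = 2.92e-09). Kcnj1, the potassium channel ROMK that recycles potassium for it, ran from 1319 to 2359 in cortex (median 2153) and from 6064 to 8743 in outer medulla (median 7258), higher by 1.90 ± 0.077, and its 2 other probe sets gave 1.99 and 2.11. The bicarbonate cotransporter Slc4a7 was higher by 3.28 ± 0.10, the phosphatase inhibitor Ppp1r1a by 2.09 ± 0.12 and the brain-type creatine kinase Ckb by 1.44 ± 0.14 (other probe set 2.44). Egf, made in this limb and the early distal tubule, was higher by 0.86 ± 0.085, and the calcium-sensing receptor Casr by 0.80 ± 0.067. The kinase Oxsr1, which activates the cotransporters, gave 2.09 ± 0.035 with no spread in cortex (10.3 to 12), and in Sprague-Dawley rats it was -1.59. Umod, the urinary protein uromodulin, ran from 14343 to 20893 in cortex (median 17656) and from 10031 to 13200 in outer medulla (median 11496) and was lower, at -0.54 ± 0.048 in 12 of 12 rats (adjusted p = 5.84e-07). The zone difference of Umod was 1.23 in low-salt intact Dahl-Iwai and -0.06 in Sprague-Dawley rats.

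Collecting duct genes were higher in the outer medulla, water channels first. Of 16 tested genes of principal cells 13 were called higher, 6 at least 2-fold, and 1 at least 2-fold lower, with a median of 0.38. Aqp2, the apical water channel inserted under vasopressin, ran from 1198 to 1683 in cortex (median 1528) and from 7161 to 10954 in outer medulla (median 9028), higher by 2.58 ± 0.075, or 5.99-fold (adjusted p = 1.44e-11). The basolateral water channels Aqp3 (2.31 ± 0.055) and Aqp4 (3.20 ± 0.062), the sodium pump regulator Fxyd4 (2.65 ± 0.078) and the vasopressin receptor Avpr2 (1.23 ± 0.086) were higher in all 12 rats, and no value of the 5 genes in the outer medulla overlapped the cortex. The subunits of the epithelial sodium channel differed by less than 2-fold: Scnn1a stood at 0.37 ± 0.062, Scnn1g at 0.37 ± 0.065 and Scnn1b at 0.06 ± 0.048 (adjusted p = 0.266). The mineralocorticoid receptor Nr3c2 was higher by 0.38 ± 0.058 and Hsd11b2, which protects it from glucocorticoids, by 0.77 ± 0.08. Kcne1, a potassium channel subunit on this list that is also known from the proximal tubule, was lower, at -3.02 ± 0.052. Of 7 tested intercalated cell genes 6 were called higher, among them the anion exchanger Slc4a1 (1.33 ± 0.056, its dimmest probe set -1.50) and the channel Aqp6 (1.56 ± 0.038), both at least 2-fold.

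**Figure D2:**
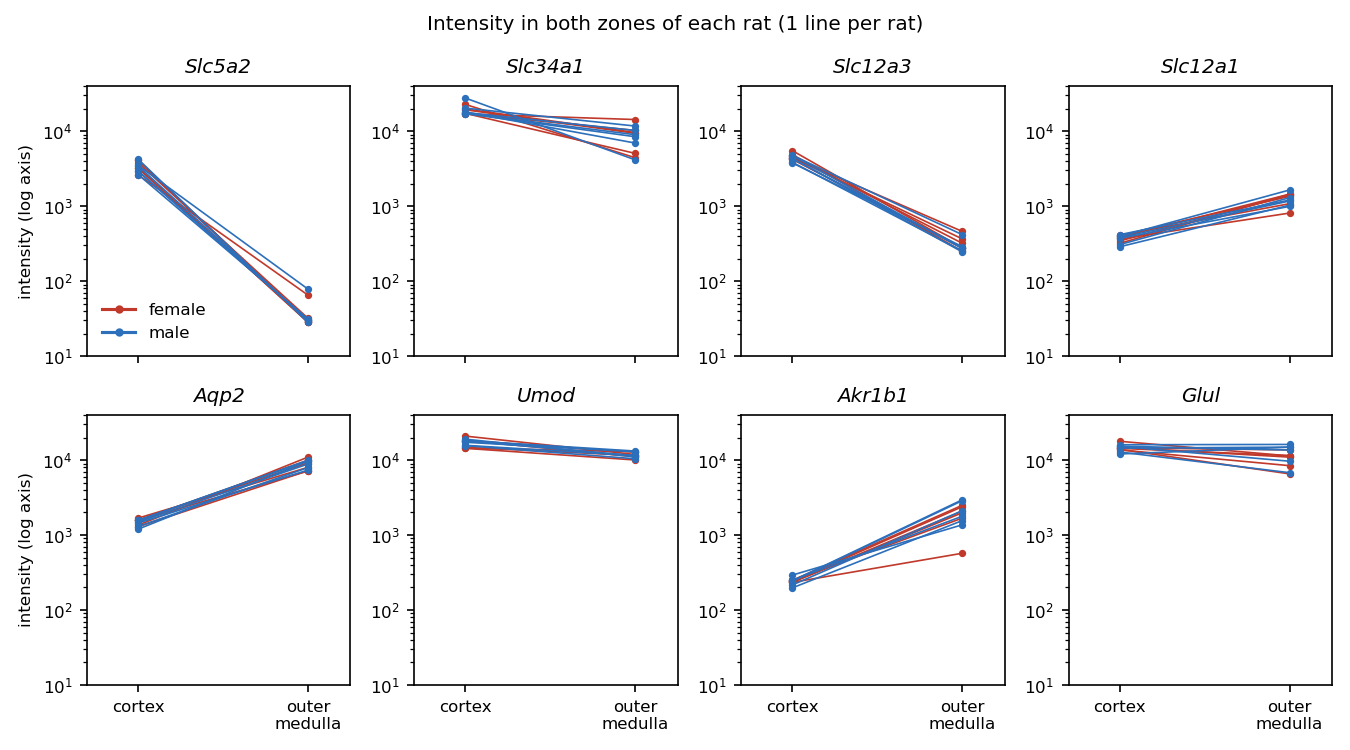
Quantile-normalized intensity (log axis) of 8 genes in cortex and outer medulla, 1 line per rat, females and males in separate colours. Slc5a2 falls from 2627 to 4225 units in cortex to 28.1 to 78.2 in outer medulla, Aqp2 climbs in every rat, and the lines of Glul cross.

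The stretch before the transcript start is shown for 4 called genes of these segments, 2 lower and 2 higher in the outer medulla, as a view of the sequence behind the markers. The 250 bases are those of RefSeq on build GRCr8, 5′ to 3′ on the gene's strand, and 27457 genes had an entry. Capitals mark 3 motifs on either strand: GTTAAT, a half-site of the hepatocyte nuclear factor HNF1, the TATA box TATAAA, and TGACGT, part of a cAMP response element. None of the 3 overlaps another in these letters.
Slc5a2 (chr1:192277371-192277620, plus strand): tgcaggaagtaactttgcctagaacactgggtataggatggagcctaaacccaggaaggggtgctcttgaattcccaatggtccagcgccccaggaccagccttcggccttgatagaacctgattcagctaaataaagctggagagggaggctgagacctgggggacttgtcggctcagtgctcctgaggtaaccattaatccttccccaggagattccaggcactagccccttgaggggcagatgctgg
Slc34a1 (chr17:9238984-9239233, minus strand): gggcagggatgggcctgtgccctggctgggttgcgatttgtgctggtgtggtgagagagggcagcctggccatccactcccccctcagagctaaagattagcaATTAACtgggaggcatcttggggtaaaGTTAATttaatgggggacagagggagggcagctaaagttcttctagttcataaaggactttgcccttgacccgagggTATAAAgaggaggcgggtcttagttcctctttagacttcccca
Kcnj1 (chr8:39037742-39037991, plus strand): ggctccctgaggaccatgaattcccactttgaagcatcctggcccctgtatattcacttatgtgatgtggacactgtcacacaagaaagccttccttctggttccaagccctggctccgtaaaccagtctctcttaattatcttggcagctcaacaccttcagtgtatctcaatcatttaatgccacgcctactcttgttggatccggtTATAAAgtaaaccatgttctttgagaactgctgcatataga
Aqp2 (chr7:132590036-132590285, plus strand): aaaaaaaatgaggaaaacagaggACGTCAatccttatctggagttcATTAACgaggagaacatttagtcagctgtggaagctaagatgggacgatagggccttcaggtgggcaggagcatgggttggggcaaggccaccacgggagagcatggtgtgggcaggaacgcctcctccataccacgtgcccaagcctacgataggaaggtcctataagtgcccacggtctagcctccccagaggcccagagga
Slc34a1 held GTTAAT on both strands and a TATA box, Kcnj1 a TATA box, and Aqp2 a GTTAAT and a TGACGT on the minus strand. The Slc5a2 window held none of these letters, which says nothing about the factors. GTTAAT was present in 6.43% of 311 genes at least 2-fold lower in the outer medulla with an entry, in 3.37% of 326 at least 2-fold higher, in 4.51% of 2972 tested genes and in 6.46% of all 27457. TATAAA was present in 10.6%, 12.3%, 9.59% and 13.1% of the same groups and TGACGT in 9%, 7.67%, 9.76% and 7.25%. These shares are given as a description, with no test.

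Genes of the thin limbs and of osmolyte handling did not move as 1 group. Of 7 tested members 4 were at least 2-fold higher and 1 at least 2-fold lower, with a median of 1.51. Akr1b1, the aldose reductase that makes sorbitol in hypertonic tissue, ran from 198 to 293 in cortex (median 241) and from 572 to 2959 in outer medulla (median 2036), higher by 2.95 ± 0.17, and its other probe set lay at the floor in the median cortex and at 1059 in the median outer medulla, so that its 6.98 is only a lower bound. Its lowest outer medulla value, 572, was that of rat1. The small heat shock protein Cryab, abundant in the medulla, was higher by 2.39 ± 0.083 and the tetraspanin Tspan8 by 2.30 ± 0.09. The taurine transporter Slc6a6 was lower, at -1.58 ± 0.081 in 12 of 12 rats, at 736 to 1148 in cortex and 223 to 403 in outer medulla. In low-salt intact Dahl-Iwai rats Slc6a6 was at 1.85. The inositol transporter Slc5a3 gave 0.19 ± 0.09 (adjusted p = 0.0743), against 4.56 in low-salt intact Dahl-Iwai and 2.15 in Sprague-Dawley rats. For the urea transporter Slc14a2 the brightest probe set gave 0.01 ± 0.074 and the other 6.68 (11 in cortex and 1132 in outer medulla, as medians), so the 2 probe sets of this gene disagree. Slc14a1, the urea transporter of descending vasa recta, was higher by 0.69 ± 0.043 (other probe set 2.13).

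Glomerular genes were dim and mostly lower. Of 5 tested members 3 were at least 2-fold lower and 1 at least 2-fold higher. The median was -1.43, against -0.43 in low-salt intact Dahl-Iwai and 0.37 in Sprague-Dawley rats. Of the 3 lower genes 2 were tested and negative in both other experiments. Pdpn (podoplanin) was at least 10.2-fold lower, at or near the floor in outer medulla, Synpo (synaptopodin) stood at -2.42 ± 0.041 and Ptpro, a podocyte phosphatase, at -1.43 ± 0.058, but Pdpn had no spread in cortex and Synpo none in outer medulla. Wt1, the podocyte transcription factor, lay at 43.2 to 49.1 in cortex and at the floor in all 12 outer medullas and was under the filter on low values. Tcf21, a factor of podocytes and stromal cells, was higher by 2.61 ± 0.075, and stood at 3.14 and 2.40 in low-salt intact Dahl-Iwai and Sprague-Dawley rats. Endothelial genes went both ways: Pecam1 was higher by 0.67 ± 0.064, Kdr, a receptor for vascular endothelial growth factor, was at -0.83 ± 0.095, and Vwf stood at the floor in both zones.

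Markers of other tissues and blood were measured in the same arrays. Beta-globin (Hbb), from red cells, ran from 1190 to 8485 in cortex (median 1542) and from 5477 to 18814 in outer medulla (median 8233), higher by 2.22 ± 0.11, with rat1 the highest in both zones. Fabp4, the fatty acid-binding protein of fat, capillary endothelium and macrophages, stood at the floor in all 12 cortices and at 479 to 947 in the outer medulla, at least 85.7-fold higher. The other tested fat genes were Lpl at 0.52 and Lep at 0.09 (adjusted p = 0.235). Liver genes had 0 of 4 members past 2-fold, with Alb at 30.1 to 42 in cortex and 16.3 to 32.3 in outer medulla. The median of the liver list was -0.54, against 1.04 in low-salt intact Dahl-Iwai and 0.60 in Sprague-Dawley rats. The adrenal enzymes Cyp11a1 (-1.72 ± 0.035) and Cyp21a1 (-1.97 ± 0.036) were dim and lower, Cyp21a1 without spread in cortex, and Cyp11a1 was at 1.80 in Sprague-Dawley rats. The part of red cells, fat or adrenal tissue in the zone differences was not tested.

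Leukocyte genes were higher in the outer medulla in 9 of 13 tested members and lower in 3, 5 of them at least 2-fold higher. The complement gene C1qb ran from 108.9 to 159 in cortex and from 368 to 814 in outer medulla without overlap (2.32 ± 0.053), with its other probe set at the floor in all 12 cortices and at 218 to 475 in outer medulla, the actin regulator Coro1a stood at 1.96 ± 0.049, lysozyme Lyz2 at 1.56 ± 0.089 and Cd4 at 1.17 ± 0.059. The pan-leukocyte gene Ptprc gave opposite results in its probe sets: the brightest was lower, at -0.55 ± 0.035 with no spread in outer medulla, another was higher by 0.73 in 10 of 12 rats (adjusted p = 0.00132), and the dimmest, under the filter on low values, was higher in 12 of 12. The class II chain Cd74 was lower, at -0.24 ± 0.047. The differences of Cd74 and of the brightest Ptprc probe set turn positive on the intensities as deposited. In the other experiments C1qb gave -0.02 and 0.21 and Coro1a 0.54 and -0.12, for low-salt intact Dahl-Iwai and Sprague-Dawley rats. The summed intensity of the 13 genes ran from 18614 to 24538 in cortex and from 20311 to 32816 in outer medulla. Among 13 smooth muscle and fibroblast genes 2 were at least 2-fold higher, fibronectin (Fn1, 1.37 ± 0.089) and biglycan (Bgn, 1.22 ± 0.062), while the probe sets of 2 others disagreed. For Acta2, the smooth muscle actin, the brightest gave -0.00 ± 0.1 (adjusted p = 0.989) and the others 0.40 and -0.58, both called. For the collagen gene Col1a1 the brightest gave 0.13 ± 0.088 (adjusted p = 0.175) and the other 3 were called lower, at -0.31, -0.33 and -0.42.

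Genes listed as markers of injury and dedifferentiation, several of which the healthy medulla also expresses, were higher in 12 of 16 and lower in 2, 10 of them at least 2-fold higher, with a median of 1.14. Lcn2 (lipocalin 2) ran from 29.6 to 61.5 in cortex (median 46.3) and from 246 to 1090 in outer medulla (median 436), a difference of 3.36 ± 0.08. Osteopontin (Spp1) ran from 766 to 3784 in cortex (median 1968) and from 5402 to 11133 in outer medulla (median 7309) (1.92 ± 0.18), clusterin (Clu) was higher by 1.51 ± 0.11, annexin A2 (Anxa2) by 1.97 ± 0.067, galectin 3 (Lgals3) by 1.94 ± 0.073 and the hyaluronan receptor Cd44 by 1.59 ± 0.04 (another probe set 0.54). Havcr1, the injury molecule KIM-1 of the proximal tubule, gave 0.24 ± 0.12 (adjusted p = 0.0752). Of the 10 genes at least 2-fold higher 9 also had positive differences in both other experiments, the exception being Timp1 (1.24 ± 0.054, no spread in cortex, and its other probe set at the floor in all 12 cortices), at -0.20 in low-salt intact Dahl-Iwai rats.

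The list counts moved with the scaling. On the intensities as deposited the convoluted tubule list had 11 genes at least 2-fold lower (against 17) and 3 higher (against 1). On that scale 10 thick ascending limb genes (against 6), 10 collecting duct genes (against 6) and 8 leukocyte genes (against 5) were at least 2-fold higher. The prostaglandin list had 2 lower (against 7) and 3 higher (against 2), and the glutathione list 0 lower (against 3) and 7 higher (against 4).

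**Figure D3:**
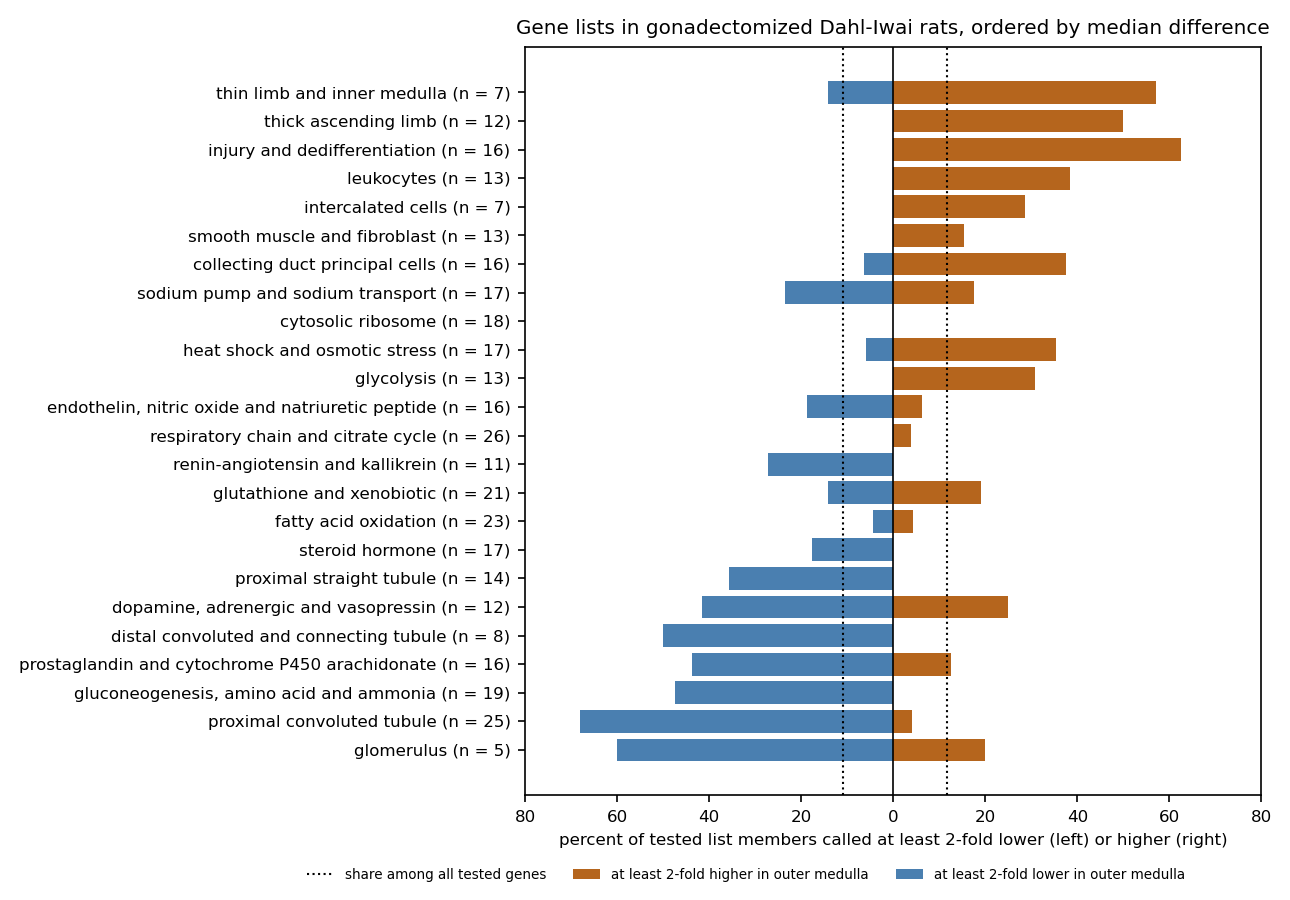
Percent of the tested genes of each list (lists with at least 5) that were at least 2-fold lower (left) or higher (right) in the outer medulla, ordered by the list's median difference. Dotted lines mark the shares among all 3604 genes, 11% lower and 11.6% higher, and lists share some genes.

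Metabolic genes differed in both directions. Of 19 tested genes of gluconeogenesis, amino acid and ammonia metabolism 9 were at least 2-fold lower in the outer medulla and 0 higher, with a median of -0.94. Pck1, which commits carbon to glucose, ran from 10903 to 18814 in cortex (median 13481) and from 424 to 2375 in outer medulla (median 1472) and was lower, at -3.53 ± 0.20 (adjusted p = 8.89e-09). Pyruvate carboxylase (Pc, -2.10 ± 0.08) and fructose bisphosphatase (Fbp1, -1.65 ± 0.11) of the same pathway were lower, and so were Agxt2 (-1.94 ± 0.10), which clears dimethylarginines, and Dao, the D-amino acid oxidase (-1.24 ± 0.10). The genes of both steps of renal arginine synthesis were lower. Ass1 ran from 9970 to 13142 in cortex (median 10883) and from 952 to 4091 in outer medulla (median 1758) (-2.67 ± 0.15), and Asl was at -2.26 ± 0.057. Arg2, the mitochondrial arginase, was higher by 0.63 ± 0.049, Odc1, the first enzyme of polyamine synthesis, by 0.87 ± 0.13. In glycolysis 4 of 13 were at least 2-fold higher and 0 lower: platelet-type phosphofructokinase Pfkp (2.00 ± 0.067, other probe set 4.61), pyruvate kinase Pkm (1.99 ± 0.056), hexokinase Hk1 (1.68 ± 0.10, another probe set -0.21) and the glucose transporter Slc2a1 (1.64 ± 0.051, other probe set 2.90). The other 9 ranged from -0.40 (Hk2) to 0.60 (Aldoa), and 6 of the 13 were not called.

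Mitochondrial genes were closer to level. In the list of respiratory chain and citrate cycle 11 of 26 were called higher (42.1% over all genes) and 8 lower (40.1%), with a median of 0.10, and 1 passed 2-fold, citrate synthase (Cs, 1.21 ± 0.069). Fatty acid oxidation had 12 of 23 called lower and 8 higher, shares near those over all genes, and 1 gene past 2-fold each way. Ehhadh of the peroxisome was at -1.23 ± 0.11, and Cpt1a, which admits fatty acids to mitochondria, at 1.30 ± 0.074. Of 21 glutathione and xenobiotic genes 4 were at least 2-fold higher, the transferases Gsta3 (1.81 ± 0.084) and Gstp1 (1.59 ± 0.09), Nqo1 (1.35 ± 0.10) and Gpx2 (1.08 ± 0.056, no spread in cortex), and 3 lower, Sod3 (-1.17 ± 0.13), Gsta1 (-1.12 ± 0.069) and catalase (Cat, -1.08 ± 0.097, another probe set -0.36, not called). In the heat shock and osmotic list 6 of 17 were at least 2-fold higher and 1 lower, among them Hspb1 (1.62 ± 0.07, others from 0.10, not called, to 2.75) and Hspa1a (1.62 ± 0.11). Genes of the cytosolic ribosome, as a reference list, had 0 of 18 past 2-fold and a median of 0.21. The medians of the ribosome and respiratory chain lists rest on the scaling, with the ribosome at 0.80 on the intensities as deposited. With arrays scaled to a common median the respiratory chain list was at -0.16.

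Genes of salt and pressure control were found on both sides. Of 17 sodium transport genes 3 were at least 2-fold higher, NKCC2 and ROMK above and the basolateral cotransporter Slc12a2 (1.56 ± 0.062, 2 others at 0.10, not called, and -1.09), and 4 at least 2-fold lower, Slc4a4, Slc5a2, Slc12a3 and Slc34a1. Ddc, the decarboxylase that makes renal dopamine in the proximal tubule, ran from 238 to 289.8 in cortex and was at the floor in all 12 outer medullas, at least 32.8-fold lower, and Maob, which degrades dopamine, was lower, at -2.90 ± 0.092. The dopamine receptor Drd1 gave -1.30 ± 0.054 and another probe set 0.74. The adrenergic receptor Adra1b was lower, at -1.19 ± 0.087. In the kallikrein and angiotensin list 3 of 11 were at least 2-fold lower, Klk1, kininogen Kng2 (-1.95 ± 0.11) and aminopeptidase A (Enpep, -1.68 ± 0.085), whereas Agt stood at 0.06 ± 0.035 (adjusted p = 0.156), Agtr1a at 0.32 ± 0.062 (2 other probe sets, not called, at 0.07 and -0.09) and Ace at 0.04 ± 0.043 (adjusted p = 0.426, no spread in cortex). Ddah1, which degrades methylarginine inhibitors of nitric oxide synthase, was lower, at -2.01 ± 0.11 (other probe set -3.03), and the natriuretic peptide receptor Npr2 higher by 1.12 ± 0.091, against -0.04 and -0.61 in low-salt intact Dahl-Iwai and Sprague-Dawley rats. Of 16 prostaglandin and arachidonate genes 2 were at least 2-fold higher and 7 lower. The phospholipase Pla2g4a (1.93 ± 0.077) and the cyclooxygenase Ptgs1 (1.78 ± 0.041) were higher, and Ptgds (-1.66 ± 0.11) and the arachidonate hydroxylase Cyp4a1 (-1.66 ± 0.12, its other probe sets -3.32 and -2.67) lower. Ptgs2, the inducible cyclooxygenase, was lower, at -1.56 ± 0.024 in its brighter probe set, without spread in cortex at 44 to 48.2, whereas the other lay at the floor in cortex and at a median of 44.5 in outer medulla.

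Steroid hormone genes, of interest where the gonads are gone, gave 3 of 17 at least 2-fold lower and 0 higher. Vdr, the vitamin D receptor, ran from 249 to 330.2 in cortex (median 277) and from 26 to 28.9 in outer medulla (median 27.5) (-3.39 ± 0.046), with 0.27 in low-salt intact Dahl-Iwai and -1.66 in Sprague-Dawley rats. The sulfotransferase Sult1c3 was lower, at -2.21 ± 0.075 and the growth hormone receptor Ghr at -1.45 ± 0.045, another probe set of Ghr being at 0.23. The prolactin receptor Prlr was at -0.95 ± 0.13 (2 of its other probe sets at -1.97 and -2.33), the estrogen receptor Esr2 at -0.41 ± 0.055 and the glucocorticoid receptor Nr3c1 at 0.02 ± 0.092 (adjusted p = 0.853), its other probe set being called lower, at -1.17. No rat with gonads was in these array sets, so these values describe the zones and not gonadectomy.

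The largest differences beyond the lists were named by size among genes with all 12 pairs the same way. Tesc, the calcium-binding tescalcin, lay at or near the floor in cortex (7.86 to 7.91) and at 749 to 1411 in outer medulla, at least 146-fold higher. Fst, the activin antagonist follistatin, lay at 33.6 to 35.9 in cortex without spread and at 1184 to 3180 in outer medulla (5.75 ± 0.11, other probe set 6.10). Grem1, an antagonist of bone morphogenetic proteins, was at the floor in all 12 cortices and at 129 to 345 in outer medulla, at least 26.3-fold higher. Nupr1 (5.28 ± 0.11), the mitochondrial transaminase Bcat2 (4.92 ± 0.063), Smim5 (at least 29.4-fold, from the floor), the steroid dehydrogenase Hsd3b7 (4.23 ± 0.039) and the glucagon receptor Gcgr (4.23 ± 0.04) followed, all 5 without spread in cortex, and Pola2 (at least 18-fold, from the floor). On the other side stood Spink1, a trypsin inhibitor (804 to 1259 in cortex, 12.3 to 18.5 in outer medulla, -6.26 ± 0.085), secreted phosphoprotein Spp2 (-5.13 ± 0.19), the glucuronosyltransferase Ugt2b35, at or near the floor in outer medulla (7.86 to 9.08, at least 52.1-fold lower, other probe set -1.67), and Mpv17l, at the floor in all 12 outer medullas (at least 60.1-fold lower), where its other probe set was at the floor too. Each of these 13 genes had the same sign in low-salt intact Dahl-Iwai and Sprague-Dawley rats wherever it was tested there. Several differences were smaller in size there, among them those of Bcat2, Hsd3b7, Pola2 (0.67 and 1.55) and Spp2 (-4.66 and -3.04).

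Females and males showed the same zones. In females 4638 probe sets were called (75.8%; 38.2% higher and 37.6% lower) and in males 4550 (74.4%; 36.7% higher and 37.7% lower). Of these, 4206 were called in both with 1 direction and 1 in opposite directions, and 1333 were at least 2-fold in both. For Slc5a2 the mean was -6.70 in females and -6.53 in males, for Slc12a1 1.73 and 1.76 and for Aqp2 2.52 and 2.64. The sex difference of the zone difference was called for 0 of 6118 probe sets by limma (0%), with 471 at an unadjusted p under 0.05 (7.70%) and the smallest adjusted p at 0.159. In the outer medulla, sex and array set coincide and cannot be told apart. With no filter on low values 50 of 8740 probe sets were called.

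Salt was compared within array sets, as 3 rats on high against 3 on low salt in each sex. In females 1 probe set was called (0.0163%), that of Ccl20, a chemokine that attracts dendritic and T cells. On low salt its cortex intensities were 45.9, 46.7 and 41.6 and its outer medulla intensities 45.1, 47.8 and 38.4, so the zones were level. On high salt the cortex stood at 98.6, 63.4 and 97.0 and the outer medulla at 32.1, 32.4 and 36.8. The high-salt zone differences of -1.62, -0.97 and -1.40 did not overlap the low-salt ones of -0.02, 0.04 and -0.12, a salt effect of -1.29 ± 0.16 (adjusted p = 0.0307). In males the differences were -0.21, -0.44 and -0.64 on low and -0.89, -0.85 and -0.67 on high salt. The call for Ccl20 is a narrow one: it was lost on the intensities as deposited (adjusted p = 0.0597), with a floor at the 40th percentile (0.0821), with no filter (0.258) and without the variance trend (0.062). Leaving out 1 rat at a time gave from 0 to 17 probe sets called in females, the 17 without rat3, and the call for Ccl20 was lost without rat1, rat2, rat4, rat6, rat8, rat11 or rat12.

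Lcn2 came next in females and was not called. Its outer medulla intensities were 246, 481 and 299 on low salt and 1090, 662 and 879 on high salt, while the cortex lay between 45.3 and 61.5, an effect of 1.52 ± 0.23 (adjusted p = 0.0975). In males the outer medulla of Lcn2 was 391, 300 and 248 on low salt and 682, 352 and 547 on high salt, so that 1 high-salt rat lay below the highest low-salt rat. The zone difference of Ugdh, which makes UDP-glucuronate, was -2.07, -1.86 and -1.70 in low-salt and -1.08, -0.73 and -0.91 in high-salt females, an effect of 0.97 ± 0.16 (adjusted p = 0.134). In males Ugdh lay between -0.996 and -0.58 on either diet. C1qb and Medag, a gene of fat cell differentiation, had the smallest p in males together with Hsd17b7, with C1qb at 1.84, 1.75 and 1.71 on low and 2.36, 2.30 and 2.88 on high salt (effect 0.75 ± 0.15, adjusted p = 0.652). Medag had effects of 0.81 ± 0.13 over both sexes (adjusted p = 0.13) and was not called. Its zone differences were higher in all 6 high-salt rats (lowest 3.92, rat11) than in all 6 low-salt rats (highest 3.86, rat3). Medag was named for its small p, so this separation follows in part from that choice. How many other probe sets separate the diets was not counted.

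**Figure D4:**
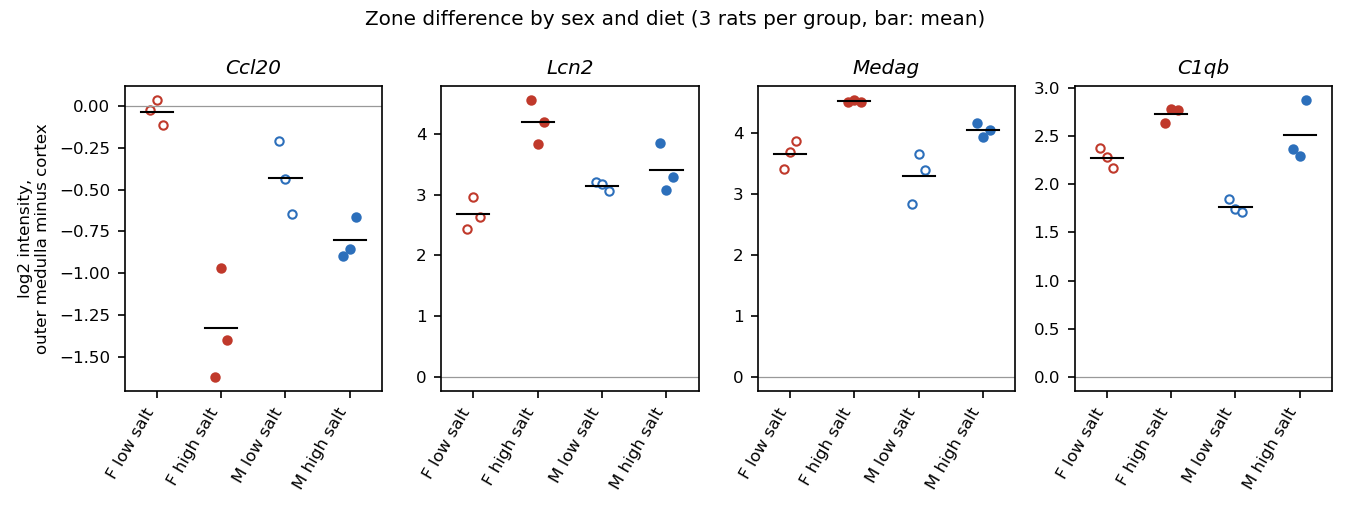
Zone difference (log2 intensity, outer medulla minus cortex) of 4 genes by sex and diet, 3 rats per group as points (open on low salt, filled on high salt) with the mean as a bar. High-salt females lie below low-salt females in Ccl20 and above them in Lcn2, Medag and C1qb.

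Over all probe sets, salt effects on the zone difference were called for 0 in males by limma (0%; 304 at an unadjusted p under 0.05), for 0 over both sexes (0%; 645, smallest adjusted p 0.0739) and for 0 as a difference between sexes (0%; 311). In simulated data of the same spread 75.6% of salt effects of 1 on the log2 scale in females were recovered. Of effects of 0.5, 31.6% were. Each simulated set held 200 changed probe sets among 6118, with independent errors, and the adjusted p is less strict where many probe sets change. These shares therefore do not carry over to the real salt fits, where 0 or 1 probe set was called. The median salt effect of the 14 straight tubule genes was -0.70 in females and -0.29 in males, that of the 25 convoluted tubule genes -0.55 and -0.18, and that of the 19 gluconeogenesis and amino acid genes -0.74 and -0.22. Among all lists, these had the medians furthest from 0 in females, so they are the extremes of many lists. The medians are descriptions, and 0 of the members of these lists were called. Rat1 is 1 of the 3 low-salt females, and its outer medulla held Slc5a2, Slc13a3 and Slc22a6 at a higher share of its cortex than in any other rat. Rat10, next after rat1 in its share of Slc5a2, is 1 of the 3 high-salt males. For the gluconeogenesis and amino acid list the median zone difference was -0.39 in rat1, against -0.99 and -0.86 in rats 2 and 3. It was -0.65 in rat10, against -1.31 and -1.29 in rats 11 and 12. The part of these 2 rats in the medians, and in their difference between females and males, was not tested.

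Set beside the other experiments, which are other animals on other array sets, the zone differences shared many of their directions. In low-salt intact Dahl-Iwai rats 74.3% of probe sets were called and in Sprague-Dawley rats 80.8%. At least 2-fold higher were 13.9% of all tested there and 9.22%, and at least 2-fold lower 13% and 10.6%. Of the 721 probe sets at least 2-fold higher here, 311 were so in low-salt intact Dahl-Iwai rats (43.1% of these and 36.5% of the 852 there) and 279 in Sprague-Dawley rats (38.7% and 49.5% of 564). Of the 720 lower, 323 (44.9% and 40.5% of 798) and 343 (47.6% and 53.1% of 646) were. At least 2-fold the other way were 25 of the 721 and 59 of the 720 in low-salt intact Dahl-Iwai rats. In Sprague-Dawley rats these counts were 21 and 26. In all 3 experiments 192 were higher (26.6% of the 721) and 251 lower (34.9% of the 720). Over 5526 probe sets tested in all 3, the differences correlated at r = 0.598 with low-salt intact Dahl-Iwai and 0.631 with Sprague-Dawley rats, and at 0.736 and 0.777 over the 2946 with spread in both zones and a mean in the upper part, as a description across probe sets that share an array design. The gonadectomized minus intact difference of the zone difference, fitted on low-salt Dahl-Iwai rats, was called for 3810 probe sets (62.3%), and gonadectomy, array set and experiment cannot be told apart in it.

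**Figure D5:**
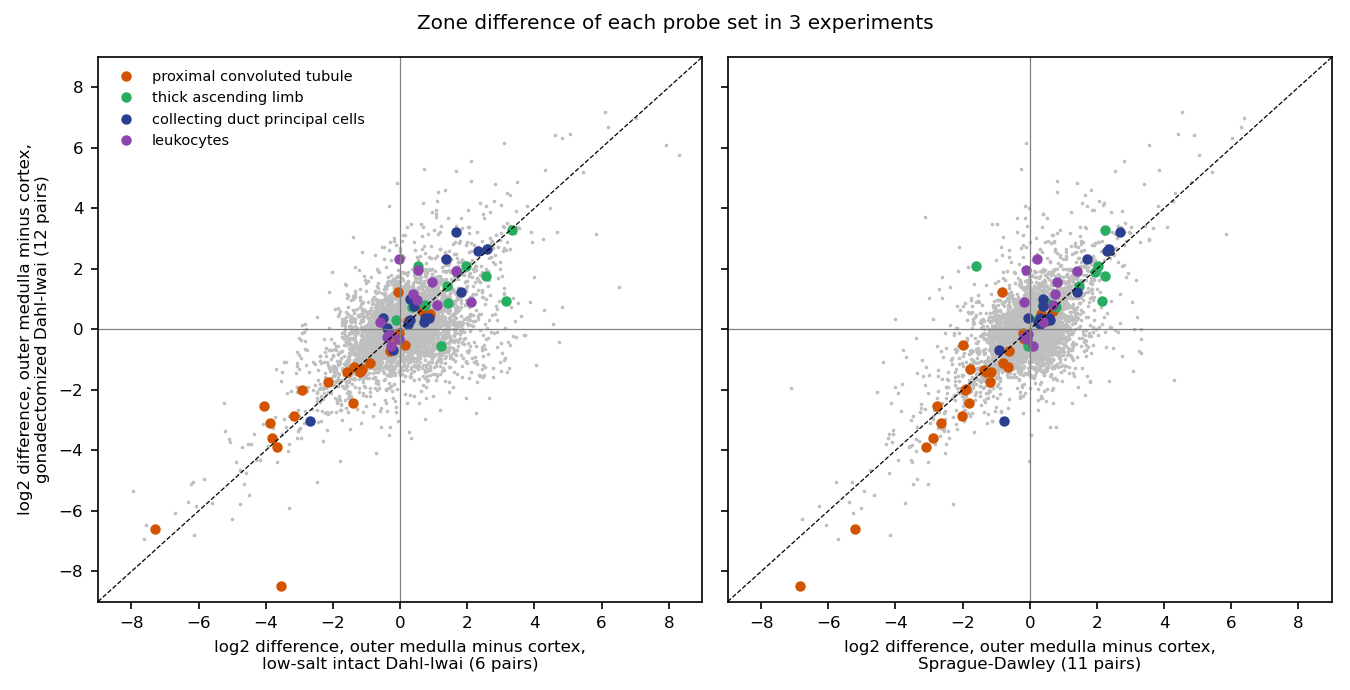
Zone difference (log2 intensity, outer medulla minus cortex) of each probe set in gonadectomized Dahl-Iwai rats against low-salt intact Dahl-Iwai (left) and Sprague-Dawley rats (right), with the line of equality. Members of 4 lists are coloured, 1 probe set per gene. Most convoluted tubule genes lie at the lower left in both panels, but some, such as Cyp27b1 and Slc9a3, lie above 0 in gonadectomized rats.

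Genes whose brightest probe set had zones that did not overlap here and the opposite sign in both other experiments numbered 192 of 1367. Hmox1, the inducible heme oxygenase, ran from 12.2 to 13.5 in cortex and from 95.3 to 116 in outer medulla (3.05 ± 0.033), against -1.41 in low-salt intact Dahl-Iwai and -0.79 in Sprague-Dawley rats, and had no spread in cortex. Another Hmox1 probe set, under the filter on low values here, was higher in 12 of 12 rats and at 0.77 in low-salt intact Dahl-Iwai rats, the same sign. For Lrfn4 the brightest probe set was lower, at -2.43 ± 0.035 with no spread in either zone, against 0.21 and 1.26, whereas the other gave -0.05 (adjusted p = 0.319) here, 0.85 and -0.24. The opposite sign of Hmox1 and Lrfn4 is therefore that of 1 probe set each. Wrap53 was higher by 2.45 ± 0.042, and Or1n1b (at least 7.38-fold) and Mbtps2 (at least 6.89-fold) were higher from cortex levels at or near the floor of 7.86. At least 2-fold in this experiment and at least 2-fold the other way in both others were 9 of the 1441 probe sets. Not all of the 1441 were tested in all 3 experiments. The 9 were 4 of the 632 higher and 5 of the 591 lower ones that were.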

How the data were processed

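Intensities were summarised by the authors as 1 value per probe set and array in the deposited table, on a linear scale; the summary, background and scaling methods are not stated in the labels. No detection calls were used. Control probe sets (59 of 8799) were left out, the 24 arrays were quantile normalized, values below the pooled 20th percentile (7.86) were set to it, log2 was taken, and probe sets in the dimmest 30% by mean were not tested. Deposited medians were 60.8 to 65.7 in cortex and 93.3 to 107 in outer medulla. Precision is limited by the number of arrays.

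The difference of each rat, outer medulla minus cortex, was the response in a linear model (limma 3.58.1, R 4.3.3) that held 1 mean for each sex and diet (3 rats each, 8 residual degrees of freedom), a variance trend on intensity, moderated p-values and Benjamini-Hochberg adjustment over all probe sets tested. All adjusted p-values in the text are from these limma fits. The model pairs by rat, since the labels give both zones of an animal the same number. Deviations of the zones within a rat correlated at a median of 0.142, above 0.1 in 8 of 12 rats. The correlation was negative in the females rat3 (-0.04), rat4 (-0.18) and rat5 (-0.07). The other experiments were normalized and fitted separately in the same way, so levels are not set across them.

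Of 8740 probe sets 7006 had 1 gene symbol, 308 several and 1426 none, and 6985 were matched by Entrez ID. The brightest probe set stands for a gene. Named genes are defining list members, up to 6 called members of a list and up to 10 genes each way with the largest differences, and for salt effects those with the smallest p. The members and lists were chosen with earlier results of these data known. The fit was tested on simulated data, where 99.8% of zone differences of 1 on the log2 scale were recovered among 6118 probe sets. Each simulated set held 200 changed probe sets, with independent errors. In the real zone fit 5039 were called, so this share does not carry over to it. Alternatives were other scalings, floors and filters, no variance trend, no pairing and leaving out each rat. Promoters were searched with Python 3.11.15. Each rat is 1 animal per the labels, and whether arrays were repeated is not stated there.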

Additional observations from a re-analysis of the deposited data

Results flagged for a closer look

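The zone difference of gonadectomized minus low-salt intact Dahl-Iwai rats was called for 3810 probe sets by limma, with gonadectomy and array set not separable. Genes named for opposite signs are given here because every pair of one experiment went one way and every pair of the other the opposite way, and the difference of each was not tested singly. The brightest probe set of Hmox1 was at 3.05 here, without spread in cortex, and negative in all pairs of low-salt intact Dahl-Iwai and Sprague-Dawley rats. Another Hmox1 probe set, under the filter on low values here, was at 0.77 in low-salt intact Dahl-Iwai rats, with 12 of 12 pairs higher here. Wrap53 was at 2.45 here and negative in all pairs of both. The brightest probe set of Lrfn4, without spread, was at -2.43 here and positive in all pairs of both, and its other probe set was at -0.05 here (not called) and at 0.85 and -0.24 in those experiments. Or1n1b was at 2.88 here, a lower bound since some cortex values were at the floor, and negative in all pairs of low-salt intact Dahl-Iwai rats.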

How the results depend on the processing

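On the intensities as deposited 4580 probe sets were higher and 1012 lower, 1779 and 302 of them at least 2-fold, against 1865 and 349 in low-salt intact Dahl-Iwai and 1481 and 338 in Sprague-Dawley rats at least 2-fold. On that scale the differences of Cd74 (0.28), Ptprc (0.12) and Col3a1 (0.29) turned positive. With the lowest 50% by mean left out, chosen after seeing the data, 404 were at least 2-fold higher and 417 lower, and 3025 were called in males, with fewer probe sets tested. The salt effect in females had 0 calls as deposited, with a floor at the 40th percentile, with no filter and with no variance trend. With the floor at the 40th percentile 1 was called in males and 1 over both sexes. With no filter 1 was called in males, 1 over both sexes, 1 for the sex difference of the salt effect and 50 for the sex difference of the zone difference. The cause was not tested. Without the replicate block, that is without pairing by rat, 5031 probe sets were called for the zone difference, 5 for salt in females, 4 over both sexes and 1 for the sex difference of the zone difference. Leaving out 1 rat gave 4923 to 5001 for the zone difference, 0 to 17 for salt in females (17 without rat3), 0 to 2 in males (2 without rat11), 0 to 4 over both sexes (4 without rat3) and 0 to 1 for the sex difference (1 without rat5). Depth is not known for arrays, and dim probe sets at the floor give only bounds.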
